A study of Homo sapiens with 8 samples.

Results

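Uroplakins and urothelial transcription factors are described here as 10 genes: UPK1A, UPK1B, UPK2, UPK3A, UPK3B, PPARG, GATA3, FOXA1, ELF3 and GRHL3. They were taken by gene name from a table of counts for 58735 genes, in which each name had 1 row. The cells, SV-HUC1, are normal human urothelium kept as a permanent line by SV40, so every library carries that background. Glucose oxidase, an enzyme that oxidises glucose and releases hydrogen peroxide, was given to 4 cultures at 20 mU per ml for 24 h, and 4 control cultures had no enzyme. No group had peroxide alone or inactive enzyme, so an effect of peroxide and any other effect of the enzyme cannot be told apart. The groups hold replicates 1 to 4 each, all of 1 cell line, and the labels do not say that equal numbers mark 1 experiment. Of the 10 genes, 8 had enough counts to be tested, and UPK1A and UPK3A were too low to judge.

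Urothelium lines the bladder, and its surface umbrella cells are covered by rigid plaques made of uroplakins. The tetraspanins UPK1A and UPK1B each pair with a membrane protein that has a single transmembrane span: UPK1A binds UPK2, and UPK1B binds UPK3A or the related UPK3B. Pairing lets most of the subunits leave the endoplasmic reticulum, and most of the uroplakins are made in quantity only late in differentiation. The genes for them are controlled by a set of transcription factors: the nuclear receptor PPARG with its partner RXRA, the zinc finger factor GATA3, the forkhead pioneer factor FOXA1, the ETS factor ELF3 and the grainyhead factor GRHL3.

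Total counts were 21437267 to 27183692 in glucose oxidase libraries and 21653952 to 23543702 in control libraries, and mitochondrially encoded genes took 2.25 to 3.28% of them with glucose oxidase and 1.23 to 2.97% in controls. Control 3 had the lowest TMM scaling factor, 0.769, and the fewest genes detected, 24385. The other libraries had factors of 0.888 to 1.17 and 26550 to 31006 genes. Libraries of equal replicate number deviated together from their group means, with correlations of 0.503 to 0.678 across genes. Libraries of replicates 1 and 2 stood apart from those of replicates 3 and 4 in both groups, with correlations of -0.678 to -0.402 across that division, which the labels do not name. Other numbers on the same side of that division correlated nearly as much as equal ones, at 0.443 to 0.652. The edgeR quasi-likelihood fit with the group alone called 0 of 17413 genes (0%) at an adjusted p below 0.05, although 1284 had an unadjusted p below 0.05. With the replicate number as a block, the same test called 7.51% of genes higher and 6.97% lower. The fit with the group alone was the one chosen as main. In what follows, "rose" and "fell" mean an adjusted p below 0.05 in the fit with the replicate block, a pairing that the labels do not state. A fit that replaced the block by a term for that division, called the set term, gave 3.72% higher and 3.07% lower. In bulk RNA, fewer cells of a kind and less RNA per cell cannot be told apart.

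Measured per length as deposited FPKM and averaged over the 8 libraries, UPK1B stood at the top of the 10 genes with 43.4 FPKM, above 93.3% of the 17413 tested genes. It was followed by ELF3 at 23.4 FPKM, GATA3 at 16.6 FPKM, PPARG at 15.2 FPKM and UPK2 at 7.0 FPKM. GRHL3 at 3.19 FPKM lay near the median tested gene, which had 3.43 FPKM. FOXA1 at 1.43 FPKM and UPK3B at 0.824 FPKM lay above 33.1% and 24.0% of tested genes, and UPK1A and UPK3A had 0.0478 and 0.0134 FPKM. Ranges over the 8 libraries overlapped between each gene and the next in this order, except between UPK3B and UPK1A. In each classical plaque pair 1 subunit was thus clearly detected and the other nearly without reads: UPK2 without UPK1A, and UPK1B without UPK3A. UPK2 lay above 65.3% of tested genes, well short of the share for UPK1B. The excess of UPK1B over UPK2, as a ratio of FPKM, ran from 2.84 to 10.9 in glucose oxidase libraries and from 2.28 to 14.2 in control libraries. UPK1B, UPK2, GATA3, PPARG and ELF3 lay above the median tested gene, and GRHL3, FOXA1, UPK3B, UPK1A and UPK3A lay below it. KRT20, the keratin of terminally differentiated umbrella cells, averaged 0.0201 CPM with glucose oxidase and 0.0446 CPM in controls and was too low to test.

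**Figure D1:**
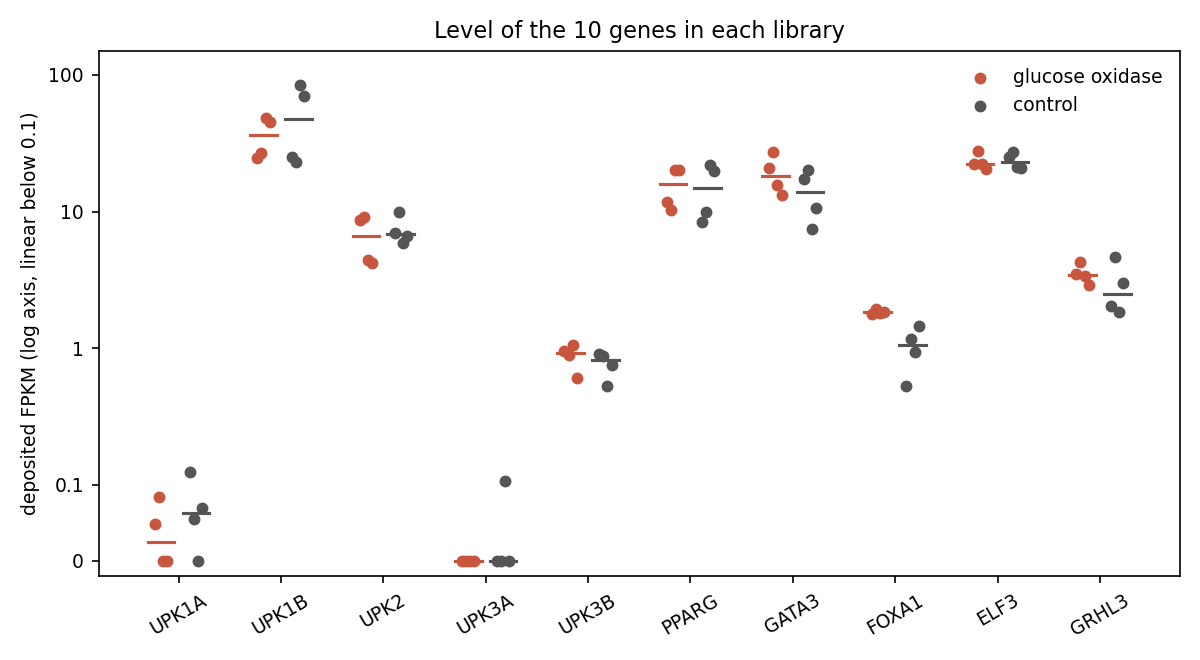
Level of the 10 genes in each library, as deposited FPKM on an axis that is logarithmic above 0.1 and linear below; points are libraries in the order of their replicate numbers and bars are group medians (n = 4 each). UPK1B and UPK2 lie far above their partner subunits UPK3A and UPK1A, and the 4 FOXA1 points of the glucose oxidase group lie above the 4 of the control group.

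FOXA1 and GATA3 rose with glucose oxidase, and no tested gene of the 10 fell. These are 2 of 8 tested genes called higher, beside 7.51% of all tested genes in that fit, and the number is too small to read more from the share. Across the 8, the median log2 change was 0.15, against -0.01 over all tested genes. With the group alone 0 of the 8 were called, and with the set term only FOXA1 was.

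FOXA1 (ENSG00000129514, chromosome 14, 37589984 to 37596059, minus strand, GRCh38) opens closed chromatin for other factors and is a mark of differentiated luminal urothelium. Its normalised level was 7.17, 7.98, 7.21 and 7.39 CPM in glucose oxidase cultures 1 to 4, against 2.16, 4.87, 3.65 and 5.81 CPM in control cultures 1 to 4. All 4 glucose oxidase cultures were above all 4 controls, as were 2.42% of tested genes. The cultures with glucose oxidase were also close to each other while the controls were spread: 7.44 ± 0.38 CPM with glucose oxidase against 4.12 ± 1.58 CPM in controls (SD, n = 4 each). Behind these levels were 213, 199, 172 and 192 counts with glucose oxidase and 50, 124, 66 and 121 counts in controls, so each control rests on few reads. The ratio of glucose oxidase to control was 3.32, 1.64, 1.98 and 1.27 in replicates 1 to 4. The log2 change was 0.92 (SE 0.21, 95% interval 0.48 to 1.36, edgeR adjusted p = 0.00484) with the replicate block and 0.86 with the set term (edgeR adjusted p = 0.0387). With the group alone it was 0.85 (interval 0.22 to 1.48, edgeR adjusted p = 0.658), and the authors' deposited table gives 0.85 with an adjusted p of 0.309. In separate fits of 2 libraries against 2, replicates 1 and 2 gave 1.09 (edgeR adjusted p = 0.193) and replicates 3 and 4 gave 0.66 (edgeR adjusted p = 0.0550). The call was lost without the pair of replicate 1, whose control was the lowest library: the blocked change was then 0.69 (edgeR adjusted p = 0.0584). That fit also has fewer libraries, and the part of the pair itself was not tested.

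GATA3 (ENSG00000107485, chromosome 10, 8045378 to 8075203, plus strand, GRCh38), a zinc finger factor that keeps urothelial and other luminal epithelia in their differentiated state, stood at 73.0, 97.8, 53.9 and 45.9 CPM in glucose oxidase cultures 1 to 4. Control cultures 1 to 4 had 60.9, 72.4, 25.2 and 36.8 CPM. The groups overlapped, because replicates 1 and 2 were higher than 3 and 4 in both of them, but within every replicate number the glucose oxidase culture was the higher one, as for 16.9% of tested genes. The ratios were 1.2, 1.35, 2.14 and 1.25 in replicates 1 to 4. GATA3 thus averaged 67.7 ± 23.1 CPM with glucose oxidase and 48.8 ± 21.6 CPM in controls (SD, n = 4 each), and its blocked log2 change was 0.52 (SE 0.15, interval 0.21 to 0.83, edgeR adjusted p = 0.0191). The set term left the size at 0.52 but not the call (edgeR adjusted p = 0.0614), and with the group alone the change was 0.47 (edgeR adjusted p = 0.725). In the separate fit of replicates 3 and 4, 2 libraries against 2, GATA3 was called higher with a log2 change of 0.73 (edgeR adjusted p = 0.000903). That fit called 8.01% of genes higher. In the separate fit of replicates 1 and 2 GATA3 had 0.35 (edgeR adjusted p = 0.593). The division was seen in these same libraries, so the separate fits give no independent support. Without the pair of replicate 3, whose control had the fewest genes detected, the call over all replicates was lost, with a blocked change of 0.34 (edgeR adjusted p = 0.230). Here too fewer libraries were left, and the part of the pair itself was not tested. DESeq2 with the replicate block, in which 8.03% of genes were called higher, also called both FOXA1 (adjusted p = 0.00400) and GATA3 (adjusted p = 0.0165).

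The windows of 250 bases before the start of these genes are shown because FOXA1 and GATA3 were the called members, and both hold the forkhead letters TGTTTNC, here in capitals. Sequences are from RefSeq on GRCh38.p14, printed 5′ to 3′ along the gene's own strand; in FOXA1 the capitals are the match read from the other strand.
FOXA1, chr14:37595250-37595499, minus strand: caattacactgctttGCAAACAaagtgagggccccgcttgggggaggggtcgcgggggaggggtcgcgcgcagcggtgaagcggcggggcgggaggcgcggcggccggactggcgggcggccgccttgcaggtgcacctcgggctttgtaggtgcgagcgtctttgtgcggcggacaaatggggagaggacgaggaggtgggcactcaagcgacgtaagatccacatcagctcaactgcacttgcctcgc
GATA3, chr10:8045083-8045332, plus strand: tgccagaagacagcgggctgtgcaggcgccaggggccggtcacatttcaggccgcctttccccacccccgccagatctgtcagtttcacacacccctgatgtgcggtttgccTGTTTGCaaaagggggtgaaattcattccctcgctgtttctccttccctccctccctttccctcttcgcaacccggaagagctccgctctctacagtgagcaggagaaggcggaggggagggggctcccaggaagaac
The GATA3 window is the one of 6 RefSeq starts that lies nearest to the deposited start of the gene, 45 bases from it. The single FOXA1 start lies 810 bases inside the deposited gene. RefSeq windows were at hand for 8 of the 10 genes. UPK3B held the same letters, GATA3 held TGANTCA, the AP-1 letters, before another of its 6 starts, and 1 of 6 PPARG windows held AACNGGTT, the grainyhead letters; GATAAG, the GATA letters, was in no window of the 8 genes. Searched on both strands, these motifs do not overlap each other in the windows named, and of 35116 windows of this length TGTTTNC is in 15.5%, TGANTCA in 6.57%, GATAAG in 5.65% and AACNGGTT in 1.49%. A match describes letters and shows no binding.

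The other transcription factors were not called. ELF3, which acts downstream of PPARG in urothelial differentiation, measured 161, 208, 161 and 149 CPM in glucose oxidase cultures 1 to 4, against 183, 206, 149.7 and 149 CPM in control cultures 1 to 4. Its groups overlapped almost entirely, with 169.8 ± 26.0 CPM for glucose oxidase and 171.9 ± 27.5 CPM for controls (SD, n = 4 each). The blocked log2 change of ELF3 was -0.02 (SE 0.14, interval -0.31 to 0.28, edgeR adjusted p = 0.955), or 0.09 with scaling by total counts. With the group alone the interval was wider, from -0.48 to 0.44, so how large a change these libraries leave possible depends on the fit.

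PPARG, a lipid-sensing nuclear receptor that drives the umbrella cell programme, measured 54.1, 48.2, 90.7 and 92.3 CPM in glucose oxidase cultures 1 to 4 and 38.7, 46.7, 96.7 and 89.3 CPM in control cultures 1 to 4. What separated its libraries was the replicate number: replicates 3 and 4 stood 1.79 times above replicates 1 and 2 with glucose oxidase and 2.18 times in controls. Its blocked log2 change was 0.12 (interval -0.17 to 0.41, edgeR adjusted p = 0.633). RXRA, with which PPARG binds DNA, averaged 91.7 CPM with glucose oxidase and 93.8 CPM in controls, a blocked log2 change of -0.06 (edgeR adjusted p = 0.827).

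GRHL3, which in mice is needed for the umbrella cell layer and for epidermal barrier formation, had 14.0, 17.4, 13.2 and 11.6 CPM in glucose oxidase cultures 1 to 4, against 8.24, 19.0, 7.07 and 11.8 CPM in control cultures 1 to 4. It was higher in 2 of 4 replicates, 1 and 3, by 1.70 and 1.87 times, and close to its control in 2 and 4, at ratios of 0.915 and 0.986. Its blocked log2 change was 0.37 (SE 0.18, interval 0.00 to 0.73, edgeR adjusted p = 0.171).

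**Figure D2:**
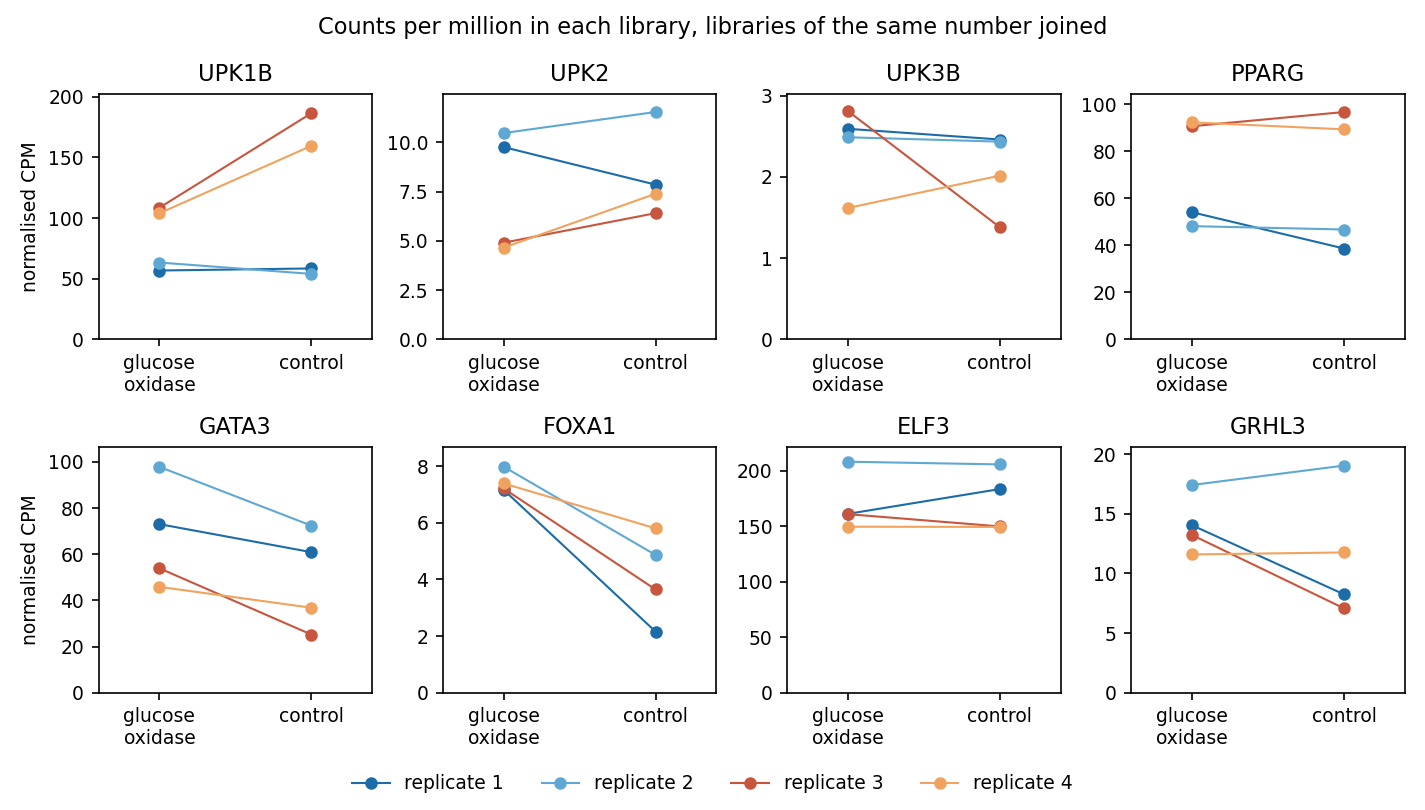
Normalised CPM of the 8 tested genes in each library (n = 4 each), with libraries of the same replicate number joined and glucose oxidase on the left. Lines for FOXA1 and GATA3 all run higher on the glucose oxidase side, while UPK1B and PPARG separate replicates 1 and 2 (blue) from 3 and 4 (red and orange).

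None of the 3 tested uroplakins was called over the 4 replicates. UPK1B, the tetraspanin that is also made outside the plaque in other epithelia, had 56.8, 63.4, 109 and 104 CPM in glucose oxidase cultures 1 to 4, against 58.5, 54.0, 186 and 159.6 CPM in control cultures 1 to 4. Replicates 1 and 2 differed little between the groups, whereas in replicates 3 and 4 the glucose oxidase cultures had 0.582 and 0.652 of their control's level. The 2 controls of replicates 3 and 4 were 3.08 times above those of replicates 1 and 2, and the same step was 1.77 times with glucose oxidase. Over all 4 replicates the blocked log2 change of UPK1B was -0.31 (SE 0.16, interval -0.63 to 0.02, edgeR adjusted p = 0.208). In a separate fit of replicates 3 and 4 alone, 2 libraries against 2, UPK1B was called lower with a log2 change of -0.65 (edgeR adjusted p = 0.00258), as were 6.23% of genes in that fit. In a separate fit of replicates 1 and 2 alone its change was 0.09 (edgeR adjusted p = 0.919). The difference between the changes was tested in a further fit of all 8 libraries, which put it at -0.80 (SE 0.26), and it missed the threshold (edgeR adjusted p = 0.443). That interaction was called for 0.23% of tested genes, and for none of the 8 tested members.

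UPK2, the partner of UPK1A, showed 9.76, 10.5, 4.91 and 4.66 CPM in glucose oxidase cultures 1 to 4 and 7.85, 11.5, 6.41 and 7.39 CPM in control cultures 1 to 4. Its blocked log2 change was -0.21 (interval -0.59 to 0.18, edgeR adjusted p = 0.505), with -0.48 and 0.05 in the separate fits of replicates 3 and 4 and of replicates 1 and 2, neither of them called. UPK3B, a relative of UPK3A that is also known from mesothelium, had 2.59, 2.49, 2.81 and 1.62 CPM in glucose oxidase cultures 1 to 4, against 2.46, 2.43, 1.38 and 2.02 CPM in control cultures 1 to 4. With 42 to 77 counts in glucose oxidase libraries and 25 to 62 in controls, its blocked log2 change of 0.19 has a wide interval of -0.38 to 0.75 (edgeR adjusted p = 0.710).

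UPK1A gave 2, 3, 0 and 0 counts in glucose oxidase libraries 1 to 4 and 4, 2, 0 and 2 counts in control libraries 1 to 4. UPK3A gave 0 counts in each of the 4 glucose oxidase libraries and 0, 0, 2 and 0 in control libraries 1 to 4. Summed over a group, UPK1A had 5 of 100638025 counts with glucose oxidase and 8 of 90379880 in controls, and UPK3A had 0 with glucose oxidase and 2 in controls. A count of 0 allows up to 3 counts, which is 0.101 to 0.126 CPM per glucose oxidase library and 0.118 to 0.166 CPM per control library, counting error only. No change of either gene was detectable at this depth.

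**Figure D3:**
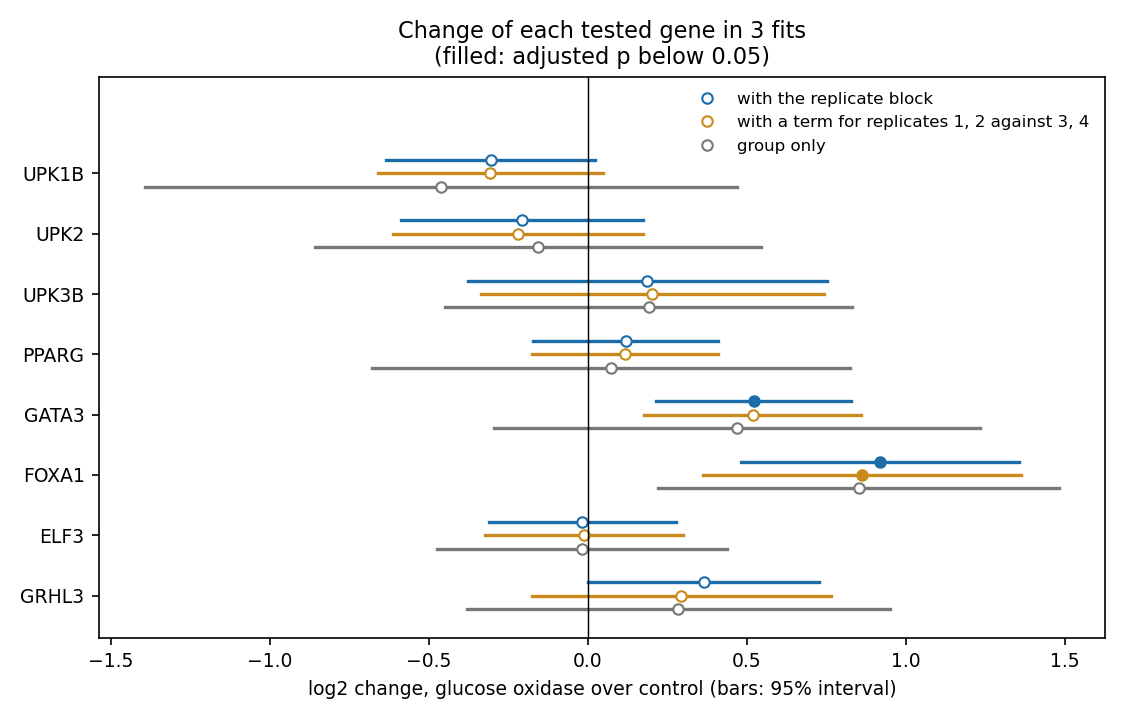
Log2 change of the 8 tested genes, glucose oxidase over control, with 95% intervals from 3 edgeR fits (n = 4 each); filled points have an adjusted p below 0.05. FOXA1 is filled in the fit with the replicate block and in the fit with the set term, GATA3 only in the fit with the replicate block, and no gene in the fit with the group alone.

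Other genes were counted from lists of known roles, which were chosen with earlier results of these data known. The shares of these lists are therefore descriptions and give no independent support to the calls of FOXA1 and GATA3. Of 28 further urothelial and epithelial transcription factors, 24 were tested, and 6 rose and 0 fell: 25.0% rose, beside 7.51% of all tested genes. Their median log2 change was 0.23, against -0.01 over all tested genes, and with the set term 4 of the 24 were called higher. Without the libraries of replicate 3, the blocked fit called 3 of them higher. The Krüppel-like factor KLF4, a regulator of epithelial differentiation, averaged 63.2 ± 13.9 CPM with glucose oxidase and 39.2 ± 25.3 CPM in controls (SD, n = 4 each), a log2 change of 0.89 (edgeR adjusted p = 0.00218). Its ratio of glucose oxidase to control was 1.33, 1.15, 3.57 and 2.32 in replicates 1 to 4. The difference between the changes of replicates 3 and 4 and of replicates 1 and 2 was not called (log2 1.24, edgeR adjusted p = 0.202). DESeq2 with the replicate block did not call KLF4 (adjusted p = 0.0674) or PRDM1 (adjusted p = 0.0631). The T-box factor TBX2 averaged 5.89 ± 2.50 CPM with glucose oxidase and 3.06 ± 1.63 CPM in controls, a log2 change of 0.99 (edgeR adjusted p = 0.00251). EHF, an epithelial ETS factor related to ELF3, averaged 94.2 ± 19.1 CPM with glucose oxidase and 61.0 ± 5.70 CPM in controls without overlap, a log2 change of 0.61 (edgeR adjusted p = 0.00515). KLF5, GRHL1 and PRDM1 were the others that rose, and of these GRHL1 and PRDM1 were not called with the set term (edgeR adjusted p = 0.0564 and 0.0650). GRHL1 belongs to the family of GRHL3, as EHF belongs to that of ELF3.

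Of 15 known PPARG targets, 12 were tested, 1 rose and 3 fell (8.33% and 25.0%, beside 7.51% and 6.97% of all tested genes), with a median log2 change of -0.08 that was 0.02 when libraries were scaled by total counts, a scaling that puts the median of all genes at 0.10. LPL, the lipase that releases fatty acids from circulating fat, averaged 20.0 ± 1.16 CPM with glucose oxidase and 11.2 ± 2.11 CPM in controls without overlap, a log2 change of 0.86 (edgeR adjusted p = 0.000695). ANGPTL4, a secreted inhibitor of that lipase, averaged 1.95 ± 1.11 CPM with glucose oxidase and 4.54 ± 3.10 CPM in controls with overlap, a log2 change of -1.09 (edgeR adjusted p = 0.00817). PLIN2, a lipid droplet coat protein, averaged 77.5 ± 24.0 CPM with glucose oxidase and 158 ± 124 CPM in controls and had a log2 change of -0.67 (edgeR adjusted p = 0.0293). Its ratio of glucose oxidase to control was 0.977, 1.13, 0.322 and 0.444 in replicates 1 to 4, and the difference between the changes of replicates 3 and 4 and of replicates 1 and 2 was itself called (log2 -1.49, edgeR adjusted p = 0.0491). FABP5, a fatty acid carrier, averaged 71.9 ± 32.3 CPM with glucose oxidase and 104 ± 60.3 CPM in controls with overlap and had a log2 change of -0.46 (edgeR adjusted p = 0.0317). PLIN2 and FABP5 were not called with the set term (edgeR adjusted p = 0.0859 and 0.123), nor PLIN2 by DESeq2 with the replicate block (adjusted p = 0.278). None of the 12 was called lower by the blocked fit without replicate 3 or without replicate 4.

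Of 17 genes of uroplakin vesicle transport and the umbrella cell surface, 14 were tested, and 4 fell and 1 rose, so 28.6% fell beside 6.97% of all tested genes. The median log2 change was -0.27, and with the set term 3 were called lower and 1 higher. PSCA, a surface antigen of umbrella cells, averaged 14.5 ± 5.32 CPM with glucose oxidase and 24.6 ± 6.48 CPM in controls, a log2 change of -0.80 (edgeR adjusted p = 0.000636). VAMP8, a vesicle fusion protein, averaged 69.1 ± 29.2 CPM with glucose oxidase and 114 ± 49.1 CPM in controls, a log2 change of -0.71 (edgeR adjusted p = 0.00174). RAB27B, a small GTPase that tethers uroplakin-bearing vesicles near the apical membrane, averaged 43.7 ± 26.0 CPM with glucose oxidase and 66.3 ± 39.6 CPM in controls, a log2 change of -0.61 (edgeR adjusted p = 0.00686). The groups overlapped for PSCA, VAMP8 and RAB27B, but within every replicate number the glucose oxidase culture was the lower one. The fourth was SYTL2, a RAB27 effector. The gene that rose, MYO5B, encodes a motor that moves apical recycling vesicles, and it averaged 34.98 ± 11.9 CPM with glucose oxidase and 22.5 ± 5.06 CPM in controls with a log2 change of 0.61 (edgeR adjusted p = 0.00515).

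**Figure D4:**
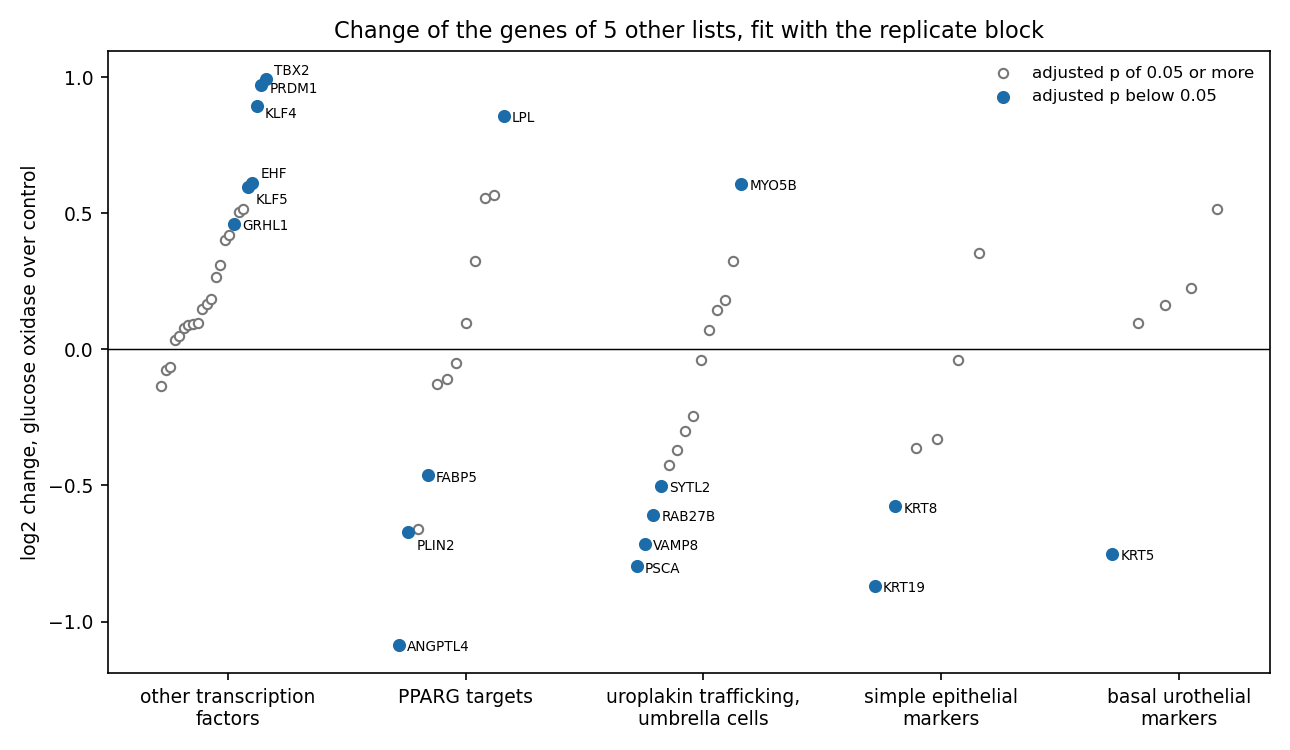
Log2 change, glucose oxidase over control, of the tested genes of 5 other lists in the edgeR fit with the replicate block (n = 4 each group); filled points have an adjusted p below 0.05. Called transcription factors (6 of 24) all lie above 0, and 4 of the 5 called genes of uroplakin transport and the umbrella cell surface lie below 0.

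Of the markers of epithelial state, 2 of 6 simple epithelial and 1 of 5 basal ones fell and none rose, beside 6.97% and 7.51% of all tested genes. Median log2 changes were -0.35 for the simple epithelial list and 0.16 for the basal list. The simple epithelial keratin KRT19 averaged 855 CPM with glucose oxidase and 1566 CPM in controls, a log2 change of -0.87 (edgeR adjusted p = 0.00166), and KRT8 averaged 1194 CPM with glucose oxidase and 1801 CPM in controls, a log2 change of -0.58 (edgeR adjusted p = 0.0338, and 0.0998 with the set term). Without replicate 1 or without replicate 2, 1 of the 6 was called lower. In the rest of that list CDH1 went the other way, with 0.35 (edgeR adjusted p = 0.129). KRT7, KRT18 and EPCAM had -0.33, -0.04 and -0.36, and none of them was called. The basal keratin KRT5 had 124 CPM with glucose oxidase and 208 CPM in controls, a log2 change of -0.75 (edgeR adjusted p = 0.00166). KRT5 stood alone in its list: CD44, ITGB4, ITGA6 and TP63 went the other way without a call, with 0.23, 0.16, 0.10 and 0.52. Markers of other cell types were low in both groups: their summed levels were 14.3 to 26.2 CPM with glucose oxidase and 16.1 to 25.9 CPM in controls for fibroblasts and 2.49 to 5.87 CPM with glucose oxidase and 3.24 to 4.97 CPM in controls for endothelium. They were 4.61 to 6.35 CPM with glucose oxidase and 7.21 to 9.66 CPM in controls for leukocytes, and 0.965 to 2.21 CPM with glucose oxidase and 1.10 to 3.24 CPM in controls for smooth muscle. Of these 17 markers 6 were tested, and CSF1R of the leukocyte list fell (log2 change -0.90, edgeR adjusted p = 0.00883), a call lost without replicate 2. Whether any of these levels had a part in the changes of FOXA1 or GATA3 was not tested.

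Over the 8 libraries the levels of UPK1B and PPARG went together (r = 0.899 of log2 CPM) and those of UPK1B and GATA3 went opposite (r = -0.908). These correlations follow the division of replicates 1 and 2 against 3 and 4, and they describe the libraries only. Among 10879 protein-coding genes, those closest in pattern to FOXA1 were SHPRH (r = 0.983) and MGLL (r = 0.973), and to GATA3 UHRF1BP1 and DOCK3 (both r = 0.997). NUDT9 was close to UPK1B (r = 0.998), ZNF143 and ARSJ were closest to PPARG (r = 0.996 and 0.995), and MLYCD and GRAMD2A to UPK2 (r = 0.959 and 0.954). ACAD10 and RTL10 were closest to ELF3 (r = 0.967 and 0.966), and SULF2 and BMP2K to GRHL3 (r = 0.977 and 0.963).

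Nothing in the labels says whether the counting told strands apart, so reads in exons shared with a neighbour may belong to either gene. ELF3 shares 664 of its 7191 exon bases with ELF3-AS1, which averaged 8.50 CPM with glucose oxidase and 13.9 CPM in controls and fell (log2 change -0.73, SE 0.17, edgeR adjusted p = 0.00400). It also shares 664 exon bases with AL691482.3 on its own strand, an overlap that no strand setting resolves. AL691482.3 had 11 to 21 counts in glucose oxidase libraries and 15 to 30 in controls. UPK2 shares 54 of 1106 exon bases with BCL9L on the other strand, which rose (log2 change 0.49, SE 0.15, edgeR adjusted p = 0.0229). FOXA1 shares 16 bases with TTC6, which had 6 to 10 counts in glucose oxidase libraries and 1 to 12 in controls, and GATA3 shares no exon base with GATA3-AS1. UPK1A shares 258 of 1366 bases with UPK1A-AS1, which had 0 counts in every library. UPK3B has near copies, among which POMZP3 averaged 5.63 CPM with glucose oxidase and 5.17 CPM in controls and UPK3BL1 had 0 counts, so the UPK3B values carry that uncertainty.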

How the data were processed

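Total RNA of 8 cultures was sequenced from NEBNext Ultra libraries. The submitters' processing notes name the build GRCh38.p13, DESeq2 1.20.0, featureCounts 1.5.0-p3 and HISAT2 2.0.5, and no strand setting was found there or in the labels. The counts, deposited per gene as whole numbers, carry no normalisation. The deposited FPKM values divide counts by gene length and by the authors' size factors, as the values show. The authors' deposited comparison table holds size-factor-normalised signal, log2 fold changes, p-values and adjusted p-values, used only where named. All 58735 identifiers match GENCODE 29 in start and end.

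Counts were filtered (filterByExpr, minimum 10, leaving 17413 genes), scaled by TMM and tested with edgeR 4.0.16 in R 4.3.3 (quasi-likelihood, Benjamini-Hochberg over all tested genes, 0.05). The group was the only term of the fit chosen as the main one. CPM values are TMM-normalised. The fit with a replicate block is given because every same-number correlation of deviations exceeded 0.1. The numbers come from the sample labels, and other numbers within replicates 1 and 2 or 3 and 4 correlated nearly as much (0.443 to 0.652). Alternatives were a term for that division, DESeq2 1.42.0, total-count scaling, no filter and leaving out libraries. Replicates of a group differed beyond sampling noise, with 10.9 to 260.2 as chi-square over its degrees of freedom. P-values of the fit with the group alone measure the spread between these cultures, which may be technical. Those of the fits with the block or the set term measure the spread left after differences between replicate numbers or sets. Those of the separate fits of replicates 1 and 2 or 3 and 4 measure only the spread between 2 libraries of a group. Between replicates 3 and 4, chi-square over its degrees of freedom was 10.9 with glucose oxidase and 25.9 in controls. Genes outside the 10 were named by rule: up to 3 called per list and direction by adjusted p (further ones are named as the rest of a count and were chosen after their values were seen), and the 2 genes of at least 5 CPM most correlated with each of the 10 that has 5 CPM or more. A result under that rule is not reported here. The 10 genes, the lists and the division of replicates were chosen with earlier results of these data known.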

Additional observations from a re-analysis of the deposited data

Results flagged for a closer look

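UPK3A had 0.110 CPM in control 3, from 2 counts, and 0 in the other 3 control libraries and in all 4 glucose oxidase libraries. With 3 libraries at 0, any count in the fourth would be picked out, and 2 counts lie within what a count of 0 allows. Of 19 groups of values examined this way, this was the 1 picked out, and chance alone gives about 1 in 20.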

How the results depend on the processing

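The counts of called genes, higher and lower, were 0 and 0 with edgeR and the group alone, and 1308 and 1213 with the replicate block, by which libraries of the same number are paired. They were 648 and 534 with the set term, 38 and 50 with DESeq2 without a block, and 1209 and 1431 with DESeq2 and the replicate block. Total-count scaling with the replicate block gave 1685 and 536, so 75.9% of calls were higher against 51.9% under TMM, and without a block it gave 0 and 0. Without the filter the counts were 18 and 16, or 1317 and 976 with the replicate block. Among the 8 tested members, 0 were called higher in the fits without a block, 2 with the replicate block under edgeR, DESeq2, total-count scaling and no filter, and 1 with the set term. None was called lower in these fits. Leaving out 1 library, or the 2 of a number, gave 0 to 978 genes higher, 0 to 908 lower and 0 to 2 members higher; all values of 0 come from fits without a block, and the blocked fits gave at least 593 higher, 507 lower and 1 member higher. The drop against the full blocked fit goes with fewer libraries. The log2 change of ELF3, -0.02 in the fit with the group alone, was 0.0617 with total-count scaling and 0.0937 with that scaling and the replicate block, and 0.0096 without the filter and 0.0089 with the replicate block added. Leaving out libraries, with or without the block, also turned its sign (-0.115 to 0.0791) and those of PPARG (-0.0996 to 0.294), UPK2 (-0.375 to 0.0443) and UPK3B (-0.0595 to 0.344). FOXA1 and GATA3 kept their direction in every fit run, and the cause of the changed calls was not tested. Depth limits UPK1A, UPK3A and UPK3B.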
